A study of Mus musculus with 99 samples.

Results

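SUZ12, the scaffold subunit of the PRC2 complex, was mapped by ChIP-seq in mouse embryonic stem cells (ESCs), and 9321 peaks were called in untreated Parental cells. Described here are the 4694 of these peaks that no RING1B peak touched, RING1B being the catalytic subunit of PRC1 left in these cells. They were chosen by the peak calls themselves: a SUZ12 peak was kept when it shared not even 1 bp with a RING1B peak of Parental -OHT or of RING1B WT +OHT. The other 4627 SUZ12 peaks overlapped RING1B, 3190 of them in both RING1B libraries, 1376 in Parental -OHT only and 61 in RING1B WT +OHT only. The RING1B and SUZ12 calls in those libraries are therefore a description of the members and no finding. All ChIP and input lists together held 407999 peaks.

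PRC2 methylates histone H3 (the mark H3K27me3), and PRC1 attaches ubiquitin to histone H2A (the mark H2AK119ub1). MTF2 and EPOP belong to the PRC2.1 form, which binds unmethylated CpG-rich DNA, whereas JARID2 and AEBP2 belong to PRC2.2, in which JARID2 can bind H2AK119ub1. PCGF2 and CBX7 mark canonical PRC1, whose CBX subunit reads H3K27me3, and PCGF6 and RYBP mark variant PRC1. In ESCs both complexes occupy CpG-rich promoters of silent developmental genes, most of which carry both marks.

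The Parental line was Ring1A-/-; Ring1B fl/fl ROSA26::creERT2 ESCs, in which 0.5 µM 4-hydroxytamoxifen (OHT) activates Cre and deletes Ring1B, and the cells were collected after 72 h. Vehicle was ethanol (-OHT). Derivatives of this line carried an integrated vector that stably expressed FLAG-HA-tagged RING1B, either wild type (RING1B WT) or with the I53S substitution that removes its ligase activity (RING1B I53S), so both still had the floxed Ring1B alleles until OHT was added. MTF2 was knocked out in Parental, WT and I53S cells, and Eed fl/fl ESCs lose the PRC2 subunit EED with OHT. By the labels every line but Eed fl/fl was Ring1A-/-, and the tagged proteins came from the vector and not from the Ring1B locus. MTF2 and JARID2 were also mapped after 48 h. Each ChIP condition had 1 library, with the exception of MTF2 and JARID2 at 72 h in WT +OHT and I53S +OHT, which had 2, and each RNA group had 2.

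The 73 peak lists used gave scores but no reads, and ChIP depth is thus unknown here, and a lower number of peaks can be shallower sequencing as well as less binding. SUZ12 peaks numbered 9321 in Parental -OHT, 5811 in Parental +OHT, 7156 in WT +OHT and 3475 in I53S +OHT. With MTF2 knocked out, SUZ12 peaks numbered 4170 without OHT, and 1801, 4634 and 706 with OHT in the Parental, WT and I53S lines. RNA libraries held 6957248 to 12743460 counted reads. CPM are counts scaled to the library total of the tested genes, adjusted by TMM normalization. Rnf2, which encodes RING1B, stood at 198 and 257 CPM in Parental -OHT and at 144 and 167 CPM in Parental +OHT. This is a gene-level count that does not single out the deleted exons. Eed stood at 255 and 173 CPM in Eed fl/fl -OHT and at 67.1 and 43.7 CPM with OHT, on the same gene-level scale. The 7 ESC markers were detected in every group, and their summed level was 3308 and 3991 CPM in the Parental -OHT libraries.

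Sequences from 6 members are shown because they stand for the opposite ends of the set: 3 from the members with the highest SUZ12 scores that carried H3K27me3, MTF2 and JARID2 peaks, and 3 from members on which none of these 3 was called. Each is the central 300 bp of the peak on the forward strand of mm10 (RefSeq GRCm38), 5′ to 3′, and capitals mark CpG dinucleotides. The first 3 lie at Srrm3 (chr5:135857053-135857352, 29 CpGs), at Ramp1 (chr1:91179834-91180133, 29 CpGs) and at Dclk3 (chr9:111439445-111439744, 7 CpGs).
Srrm3: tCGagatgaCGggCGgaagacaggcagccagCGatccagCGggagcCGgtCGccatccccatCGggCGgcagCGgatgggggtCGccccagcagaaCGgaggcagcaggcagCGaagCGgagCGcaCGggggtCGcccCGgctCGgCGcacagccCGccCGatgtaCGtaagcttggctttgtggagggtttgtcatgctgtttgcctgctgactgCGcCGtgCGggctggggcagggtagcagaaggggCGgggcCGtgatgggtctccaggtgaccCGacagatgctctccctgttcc
Ramp1: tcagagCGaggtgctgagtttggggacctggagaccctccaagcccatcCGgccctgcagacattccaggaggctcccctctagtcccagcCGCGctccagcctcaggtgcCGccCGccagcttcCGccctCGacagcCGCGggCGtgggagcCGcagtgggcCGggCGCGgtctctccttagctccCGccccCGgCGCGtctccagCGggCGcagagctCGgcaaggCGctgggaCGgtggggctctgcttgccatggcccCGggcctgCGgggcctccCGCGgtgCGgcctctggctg
Dclk3: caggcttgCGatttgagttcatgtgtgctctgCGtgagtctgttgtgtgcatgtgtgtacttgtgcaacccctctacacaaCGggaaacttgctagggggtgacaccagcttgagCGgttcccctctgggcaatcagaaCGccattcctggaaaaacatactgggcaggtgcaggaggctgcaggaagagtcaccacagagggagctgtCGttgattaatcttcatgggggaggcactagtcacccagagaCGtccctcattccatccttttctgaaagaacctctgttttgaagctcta
The last 3 overlap start sites of Lpp and its antisense gene Lppos (chr16:24393460-24393759, 35 CpGs), of Epm2a (chr10:11343412-11343711, 50 CpGs) and of Akap9 (chr5:3928175-3928474, 39 CpGs).
Lpp: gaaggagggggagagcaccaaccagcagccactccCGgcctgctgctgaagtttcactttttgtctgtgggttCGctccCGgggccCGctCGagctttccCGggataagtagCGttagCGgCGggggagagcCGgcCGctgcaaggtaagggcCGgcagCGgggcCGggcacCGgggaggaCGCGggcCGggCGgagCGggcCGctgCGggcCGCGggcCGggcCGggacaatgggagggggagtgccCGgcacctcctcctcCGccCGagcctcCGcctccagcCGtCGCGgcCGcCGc
Epm2a: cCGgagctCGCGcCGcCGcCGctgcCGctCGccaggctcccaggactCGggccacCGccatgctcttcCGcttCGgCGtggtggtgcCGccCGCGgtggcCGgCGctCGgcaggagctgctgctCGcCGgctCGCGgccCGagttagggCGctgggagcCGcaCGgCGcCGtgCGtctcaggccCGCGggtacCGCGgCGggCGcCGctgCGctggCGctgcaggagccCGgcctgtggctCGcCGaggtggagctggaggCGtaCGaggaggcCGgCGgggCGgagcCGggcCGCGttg
Akap9: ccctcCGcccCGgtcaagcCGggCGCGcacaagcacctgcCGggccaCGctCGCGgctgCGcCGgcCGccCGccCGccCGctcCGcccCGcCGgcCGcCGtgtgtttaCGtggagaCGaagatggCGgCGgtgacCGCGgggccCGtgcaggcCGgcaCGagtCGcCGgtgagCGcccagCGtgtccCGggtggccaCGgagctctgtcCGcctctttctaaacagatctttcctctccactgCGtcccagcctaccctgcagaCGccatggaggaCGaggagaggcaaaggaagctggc
GC content was 69.0%, 74.0% and 52.0% in the first 3 windows and 74.7%, 79.7% and 72.7% in the last 3. The member at Epm2a carried a PCGF6 peak and kept SUZ12 in Parental +OHT and WT +OHT. The member at Akap9 carried no peak of the other libraries of Parental -OHT and kept SUZ12 in Parental +OHT and I53S +OHT, and the one at Lpp kept SUZ12 in none.

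The members were weak and short SUZ12 peaks. Their score, the −log10 p-value that MACS2 gave each peak, had a median of 17.5 (range 10.0 to 125), against 140 in the SUZ12 peaks with RING1B. Of the members, 2737 scored under 20, 1678 scored 20 to 50 and 279 scored 50 or more, whereas the RING1B-bound peaks fell at 131, 576 and 3920. Median length was 890 bp against 2318 bp. At the edge of the rule, the member closest to RING1B lay 117 bp from a RING1B peak, and the non-member with the least overlap shared 30 bp. Within 1 kb of a RING1B peak lay 128 members (2.73%), within 10 kb 800 (17.0%), and the median distance was 80576 bp. In the RING1B libraries that the rule did not use, Parental +OHT and I53S +OHT, 34 members (0.724%) touched a peak. Peaks of the input libraries touched 6 members, and 5 members lay on the mitochondrial genome.

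Most members lay at genes. A start site stood within 2.5 kb of 3219 members (68.6%, 95% Wilson interval 67.2% to 69.9%), 771 (16.4%) lay in gene bodies and 704 (15.0%) between genes. For the RING1B-bound peaks these shares were 87.0%, 7.22% and 5.77%. GC content was alike in the middle of both sets, with a median of 58.3% in the members and 57.3% in the others, and the observed over expected CpG ratio was 0.55 and 0.59. Of 4 short motifs searched on both strands of the central 300 bp, CCGCCG occurred in 33.4% of the members, 40.0% of the RING1B-bound peaks and 18.7% of 32851 promoters of the same length. GCGGGAA occurred in 6.67%, 7.72% and 4.6%, the E-box CACGTG in 6.07%, 6.09% and 7.15%, and GAGAGAGA in 3.75%, 3.78% and 3.93%.

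Nearly all members carried PRC2.1, and most carried PRC2.2. In Parental -OHT, 4654 members (99.1%) held an MTF2 peak, 4141 (88.2%) a JARID2 peak and 2485 (52.9%) an EPOP peak, against 99.9%, 99.0% and 93.4% of the RING1B-bound peaks. AEBP2, whose library held only 1331 peaks, was called on 26 members (0.554%) and on 22.5% of the others. MTF2, JARID2 and EPOP met on 2442 members (52.0%), MTF2 without JARID2 was found on 521 (11.1%, against 0.994% of the others), and 40 members had no MTF2 peak. All these shares rest on 1 library per factor, and intervals cover counting over regions only.

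More members carried H3K27me3 than H2AK119ub1. H3K27me3 was called on 2767 members (58.9%, 57.5% to 60.3%) and H2AK119ub1 on 1745 (37.2%, 35.8% to 38.6%), against 92.2% and 77.5% of the RING1B-bound peaks. Both marks were present on 1371 members (29.2%), H3K27me3 alone on 1396 (29.7%), H2AK119ub1 alone on 374 (7.97%) and neither on 1553 (33.1%). In the RING1B-bound peaks the corresponding shares were 74.0%, 18.2%, 3.48% and 4.32%. PRC1 subunits other than RING1B were also found: PCGF6 on 1056 members (22.5%), CBX7 on 985 (21%), PCGF2 on 723 (15.4%) and RYBP on 400 (8.52%). PCGF2 and CBX7 met on 513 members (10.9%), and 2119 members (45.1%) carried at least 1 of the 4 subunits, against 98.8% of the RING1B-bound peaks. Absence of a RING1B peak was thus not absence of every PRC1 peak in these lists.

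**Figure D1:**
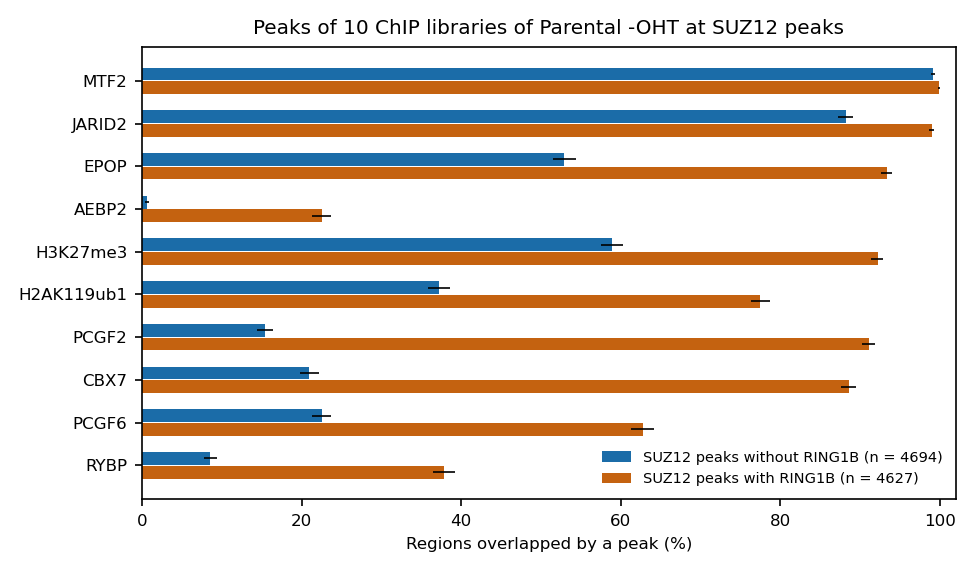
Bars give the percentage of regions overlapped by a peak of each of 10 ChIP libraries of Parental -OHT, for 4694 SUZ12 peaks without RING1B (blue) and 4627 with RING1B (orange), with 95% Wilson intervals over regions. MTF2 and JARID2 reach 99.1% and 88.2% of the RING1B-free peaks, whereas PCGF2 reaches 15.4% of them and 91.1% of the RING1B-bound ones.

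Because the members were weak peaks, each share was also read within strata of SUZ12 score. The stratum of 50 or more has no upper end, and scores in it were not alike. No member scored above 125, whereas the RING1B-bound peaks had a median of 140 over all scores and a maximum of 1314. Differences at 50 or more are therefore not free of the score. For H3K27me3 the distance between the sets was then small. It was called on 50.0% of members and 43.5% of RING1B-bound peaks at scores of 10 to 20, on 68.7% and 72.9% at 20 to 50, and on 88.5% and 96.7% at 50 or more. EPOP was found on 38.8% and 38.2%, on 69.9% and 74.1%, and on 89.2% and 98.0% in the same order of scores. JARID2 was found on 82.8% and 75.6%, on 95.2% and 97.9%, and on 99.6% and 99.9%. At scores of 10 to 20 the intervals of the sets overlapped, with 48.1% to 51.9% and 35.3% to 52.1% for H3K27me3 and 81.3% to 84.1% and 67.6% to 82.1% for JARID2. At 50 or more they overlapped for JARID2 and not for H3K27me3 or EPOP.

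For H2AK119ub1, PCGF2, PCGF6 and RYBP the intervals of the sets did not overlap at any score, whereas those of CBX7 overlapped at scores of 10 to 20. H2AK119ub1 was called on 32.7% of members and 61.1% of RING1B-bound peaks at scores of 10 to 20, on 41.2% and 66.1% at 20 to 50, and on 56.3% and 79.7% at 50 or more. PCGF2 rose with the score in both sets, from 3.98% to 25.9% and 64.2% in the members and from 15.3% to 62.3% and 97.9% in the others. CBX7 stood at 8.99% (7.97% to 10.1%), 32.8% and 67.4% in the members and at 13.0% (8.26% to 19.8%), 56.9% and 95.7% in the others. PCGF6 did not follow the score in the members, with 21.2%, 25.1% and 19.0%, against 70.2%, 55.6% and 63.5%. RYBP was found on 7.31%, 10.2% and 10.4% of members and on 56.5%, 33.9% and 37.8% of RING1B-bound peaks. The stratum of 10 to 20 held only 131 RING1B-bound peaks, and that of 50 or more held only 279 members.

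**Figure D2:**
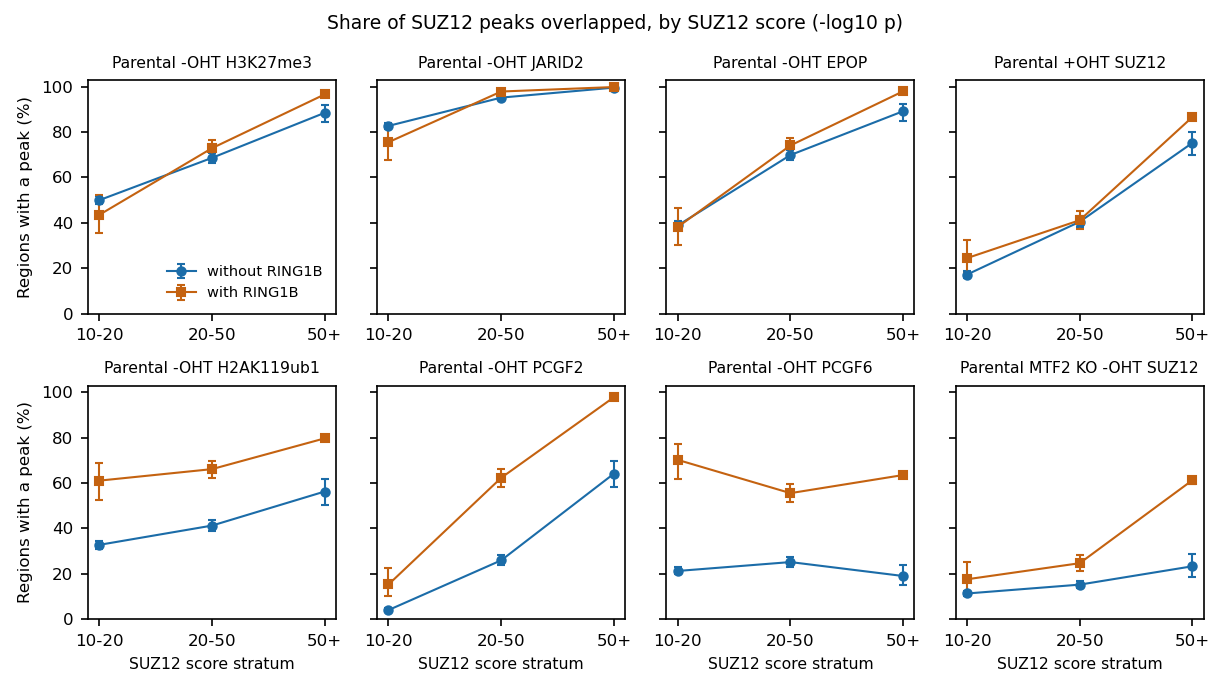
Each panel gives the percentage of SUZ12 peaks of Parental -OHT overlapped by a peak of the named library, by SUZ12 score stratum (−log10 p), for peaks without RING1B (blue circles) and with RING1B (orange squares), with 95% Wilson intervals. The curves nearly meet for EPOP at scores of 10 to 20 (38.8% and 38.2%) and stay apart for H2AK119ub1 (32.7% and 61.1%).

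The 10 members with the highest scores were all at promoters. The highest, 125, lay at Srrm3, a splicing regulator of neurons (chr5:135856601-135857805), and the next, 119.4, at Ramp1, a subunit of the receptor for calcitonin gene-related peptide (chr1:91179013-91180955). Both held H3K27me3, H2AK119ub1, PCGF2, CBX7, MTF2, JARID2 and EPOP peaks. Srrm3 had RING1B at another of its start sites. Members at the kinase gene Dclk3 (114), at Cpxm2 (112), at Chst9 (110), at Pear1 (110), at the neurotensin receptor gene Ntsr2 (108), at Gm19026 (107) and at Unc80 (105), which encodes a subunit of the NALCN sodium channel complex, carried H3K27me3, MTF2, JARID2 and EPOP too. The member at Gm336 (117, chr19:11091859-11092833) differed from the other 9, with MTF2 and JARID2 peaks but no H3K27me3, H2AK119ub1 or EPOP peak. Its GC content was 47.4% and its CpG ratio 1.10. All 10 kept a SUZ12 peak in Parental +OHT and WT +OHT.

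By the rule every member had SUZ12 in Parental -OHT, so any other library could only hold fewer, and WT and I53S cells had no SUZ12 library without OHT to compare with. SUZ12 peaks lay on 2153 members (45.9%, 44.4% to 47.3%) in WT +OHT, on 1359 (29.0%, 27.7% to 30.3%) in Parental +OHT and on 616 (13.1%, 12.2% to 14.1%) in I53S +OHT. The RING1B-bound peaks stood at 95.5%, 79.3% and 51.5%. The order of the 3 libraries follows the number of SUZ12 peaks that each held, and the share in WT +OHT shows how many weak peaks were called again in a second library with RING1B activity. Of the members, 2246 (47.8%) had SUZ12 in none of the 3 libraries, 1036 (22.1%) in WT +OHT alone, 584 (12.4%) in WT and Parental +OHT and 508 (10.8%) in all 3. Among RING1B-bound peaks 3.78% had SUZ12 in none and 51.0% in all 3. Within strata of score the sets came closer: in Parental +OHT, SUZ12 stood on 17.2% of members and 24.4% of RING1B-bound peaks at scores of 10 to 20, on 40.5% and 41.1% at 20 to 50 and on 75.3% and 86.7% at 50 or more. In I53S +OHT the intervals overlapped at 20 to 50, with 18.1% (16.3% to 20.0%) of members and 14.1% (11.5% to 17.1%) of RING1B-bound peaks. They did not at 50 or more, with 41.6% and 58.4%, where scores of the RING1B-bound peaks ran higher.

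Of the subunits followed, JARID2, CBX7 and PCGF2 were least often called again after OHT in cells without active RING1B. Of the 4141 members with JARID2 in Parental -OHT, 1.23% had it in Parental +OHT, and 0.314% and 0.241% in the 2 I53S +OHT libraries, whereas 30.8% and 37.0% had it in the 2 WT +OHT libraries. Of the 985 members with CBX7 in Parental -OHT, none had it in Parental or I53S +OHT, which leaves room for up to 0.388% by the Wilson interval, and 3.25% had it in WT +OHT. Of the 723 with PCGF2 in Parental -OHT, 1.52% had it in Parental +OHT, 0.830% in I53S +OHT and 15.5% in WT +OHT. The CBX7 and PCGF2 libraries of Parental +OHT held only 59 and 89 peaks in all. JARID2 peaks numbered 14778 in Parental -OHT, 1404 in Parental +OHT, 1080 and 446 in I53S +OHT and 5728 and 5950 in WT +OHT. On the RING1B-bound peaks JARID2 was called again on 25.9% in Parental +OHT and on 19.9% and 7.80% in I53S +OHT. CBX7 stood there at 0.927% and 0.390%, and PCGF2 at 0.308% and 11.5%, in Parental and I53S +OHT. The low shares were thus not particular to the members, and less binding and fewer calls cannot be told apart.

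MTF2 and PCGF6 were called again more often. Of the 4654 members with MTF2 in Parental -OHT, 42.2% had it in Parental +OHT, 65.5% and 59.6% in WT +OHT and 10.9% and 38.7% in the 2 I53S +OHT libraries. EPOP was called again on 13.2% of 2485 members in Parental +OHT, on 76.7% in WT +OHT and on 17.9% in I53S +OHT. PCGF6 was called again on 45.5%, 68.7% and 20.5% of 1056 members in Parental, WT and I53S +OHT. H3K27me3 was called again on 38.8%, 77.1% and 22.5% of 2767 members, and H2AK119ub1 on 35.6%, 90.5% and 20.3% of 1745 members, in the same order of lines. For H3K27me3, the RING1B-bound peaks stood at 72.2%, 92.2% and 46.0%, and for H2AK119ub1 at 70.0%, 95.8% and 47.4%. The study scaled its histone-mark signal by a Drosophila spike-in and reported H2AK119ub1 as fully lost at PRC1 targets with I53S. A peak call carries no such scaling, so these shares do not measure how much of the mark was left.

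The libraries of the 3 lines without OHT held unequal numbers of peaks. MTF2 lay on 88.1% of members in WT -OHT and on 80.4% in I53S -OHT, against 99.1% in Parental -OHT, and JARID2 lay on 51.4% and 41.4%, against 88.2%. These are single libraries of unknown depth, with 24485, 13559 and 11623 MTF2 peaks and 14778, 7446 and 6563 JARID2 peaks in Parental, WT and I53S -OHT, so lines and libraries cannot be told apart. After 48 h of OHT, MTF2 lay on 54.8% of members in Parental, 77.7% in WT and 50.8% in I53S cells, and JARID2 on 3.69%, 31.3% and 0.213%. JARID2 peaks were thus already few on the members at 48 h in the lines without active RING1B. On the RING1B-bound peaks JARID2 stood at 55.7% in Parental, 88.4% in WT and 19.9% in I53S cells at 48 h. These libraries held 3058, 5873 and 1137 JARID2 peaks in that order, so less binding and fewer calls cannot be told apart.

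The only ChIP comparison with 2 libraries a group was that of I53S +OHT with WT +OHT at 72 h. In both lines the title of replicate 1 differs in form from that of replicate 2. The test and the SDs below did not pair libraries by this form. MTF2 lay on 65.2% and 59.1% of members in the WT libraries (62.1% ± 4.34, SD, n = 2) and on 11% and 38.4% in the I53S libraries (24.7% ± 19.4, SD, n = 2). The difference was −37.4 percentage points and the groups did not overlap, with p = 0.333 in an exact two-sided permutation test, the smallest value that 2 against 2 libraries can give. The I53S libraries, with 3091 and 7546 MTF2 peaks, lay further apart than the WT libraries, and without I53S replicate 1 the difference was −23.7 points. JARID2 lay on 27.2% and 32.6% of members in WT (29.9% ± 3.83, SD, n = 2) and on 0.320% and 0.213% in I53S cells (0.266% ± 0.0753, SD, n = 2). That difference was −29.7 percentage points, with p = 0.333 in the same exact test. The design cannot reach 0.05. On the RING1B-bound peaks the differences were −34.2 points for MTF2 and −76.2 points for JARID2.

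Without MTF2, few members held SUZ12. In MTF2 KO -OHT cells SUZ12 was called on 629 members (13.4%, 12.5% to 14.4%), against 55.5% of the RING1B-bound peaks, and H3K27me3 on 614 (13.1%), against 39.2%. With OHT the share was 12.5% in MTF2 KO WT cells, 4.20% in MTF2 KO Parental cells and 1.21% in MTF2 KO I53S cells, against 57.4%, 11.1% and 2.18% of RING1B-bound peaks. Among members scoring 50 or more, 23.3% kept SUZ12 in MTF2 KO -OHT cells, against 61.3% of RING1B-bound peaks in that stratum, whose scores ran higher. At lower scores the sets were closer. The members minus the RING1B-bound peaks came to −6.27 points at 10 to 20 and −9.46 points at 20 to 50. At 50 or more it was −38.0 points, and over all scores −42.1 points. Chromosome 11 makes up 4.48% of the genome and held 595 members (12.7%) and 10.7% of the RING1B-bound peaks. It took a large part of what was left. Of the 197 members with SUZ12 in MTF2 KO Parental +OHT, 145 (73.6%) were on chromosome 11, as were 43 of 57 in MTF2 KO I53S +OHT, 241 of 586 in MTF2 KO WT +OHT and 218 of 629 in MTF2 KO -OHT. Without chromosome 11 the 4 shares were 1.27%, 0.342%, 8.42% and 10.0%. The excess was not particular to the members. Of all SUZ12 peaks of the same 4 libraries, in the same order, 67.2%, 62.7%, 29.4% and 24.2% lay on chromosome 11. In the lines with MTF2 its removal moved the SUZ12 shares little, to 28.5% in Parental, 45.4% in WT and 12.4% in I53S +OHT. Of the peaks of the RING1B library of Parental +OHT, 82.6% lay on chromosome 11. What sets this chromosome apart was not tested.

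The members also divided by their DNA. A member was termed CpG island-like when its GC content was at least 50% and its CpG ratio at least 0.6 over the whole peak. This held for 1916 members (40.8%), against 45.5% of the RING1B-bound peaks. A long peak around a short CpG-rich stretch can thus fall outside the class. Median length was 760.5 bp in the CpG island-like members and 983.5 bp in the others, and comparisons of the classes did not match length. CpG island-like members and the other 2778 had nearly the same median SUZ12 score, 17.9 and 17.5, but 89.4% of the former and 54.2% of the latter were at promoters. H3K27me3 was called on 32.4% of the CpG island-like members and 77.2% of the others, JARID2 on 75.2% and 97.2%, EPOP on 43.7% and 59.3%, and H2AK119ub1 on 29.3% and 42.6%. PCGF6 went the other way, with 37.1% and 12.5%, as did RYBP, with 13.4% and 5.15%. The 3 printed windows at Lpp, Epm2a and Akap9 are from CpG island-like members, and those at Srrm3, Ramp1 and Dclk3 from the other class. The class describes the whole peak and not the window. The windows at Srrm3 and Ramp1 each held 29 CpGs, with 69.0% and 74.0% GC, whereas the CpG ratios of the whole peaks were 0.518 and 0.393.

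SUZ12 itself also differed between the classes, in opposite directions with and without MTF2. In Parental +OHT it was called on 46.8% (44.5% to 49.0%) of CpG island-like members and 16.7% (15.3% to 18.1%) of the others, and in I53S +OHT on 22.9% and 6.41%. In WT +OHT the shares were nearer, 51.7% and 41.9%. In MTF2 KO -OHT cells SUZ12 was called on 3.24% (2.53% to 4.13%) of CpG island-like members and 20.4% (19.0% to 21.9%) of the others, and in MTF2 KO WT +OHT on 4.12% and 18.3%. Within strata of score, an alternative chosen after seeing the data, the direction held: 34.0% and 5.96%, 60.1% and 25.6%, and 89.1% and 67.4% in Parental +OHT, and 2.47% and 17.2%, 3.19% and 24.3%, and 11.9% and 29.8% in MTF2 KO -OHT. Without chromosome 11, also added after seeing the data, the shares were 45.3% and 16.1% in Parental +OHT and 1.96% and 16% in MTF2 KO -OHT. The RING1B-bound peaks showed the same directions, with 83.3% and 75.9% in Parental +OHT and 35.8% and 71.9% in MTF2 KO -OHT. Members with SUZ12 in Parental +OHT alone were CpG island-like in 78.3% of 212 cases, and those with SUZ12 in WT +OHT alone in 28.4% of 1036.

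**Figure D3:**
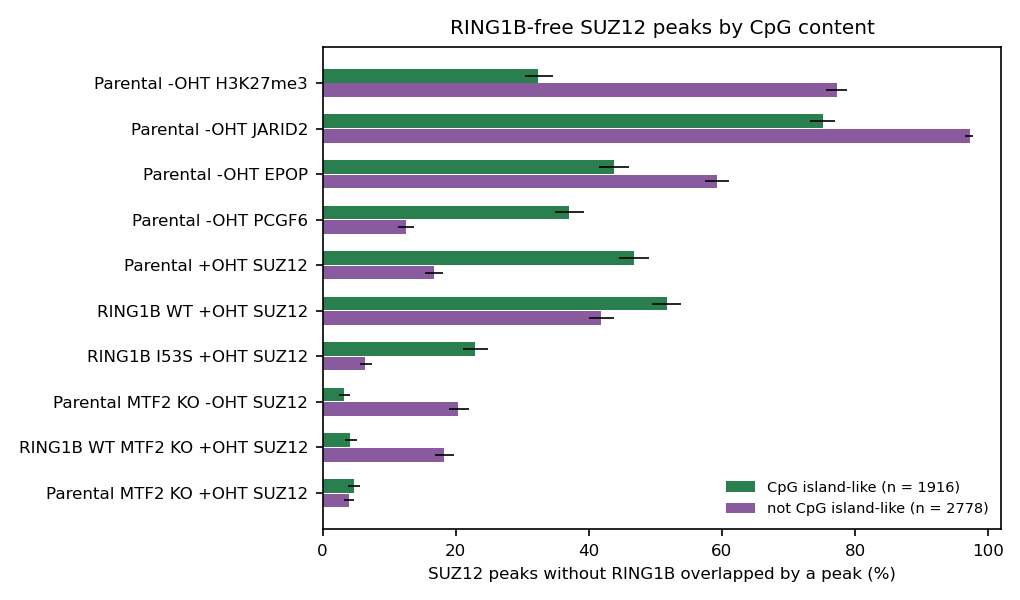
Bars give the percentage of RING1B-free SUZ12 peaks overlapped by a peak of the named library, for 1916 CpG island-like members (green) and 2778 others (purple), with 95% Wilson intervals over regions. SUZ12 in Parental +OHT is called on 46.8% and 16.7%, and SUZ12 in MTF2 KO -OHT on 3.24% and 20.4%.

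For RNA, a gene was taken as a RING1B-free SUZ12 gene when a member lay within 2.5 kb of any of its start sites and no RING1B peak of the libraries of the rule did. Of 3859 genes with a member, 475 also had RING1B at a start site, which left 3384 genes, 2466 of them protein coding. Their median level was 0.84 RPKM (CPM per kilobase of exon) in Parental -OHT, against 0.17 RPKM in the 4966 RING1B-bound SUZ12 genes. With OHT the medians were 1.40 and 0.83 RPKM. Levels of the RING1B-free genes in Parental -OHT were widely spread, with quartiles of 0.048 and 3.9 RPKM. Of these genes 52.2% were under 1 RPKM, and 607 had no count in either Parental -OHT library. Genes of CpG island-like members had a median of 1.97 RPKM in Parental -OHT and 2.33 RPKM with OHT, whereas the other genes stood at 0.11 and 0.41 RPKM. Genes with H3K27me3 at the promoter stood at 0.34 and 0.90 RPKM, and those without it at 2.12 and 2.31 RPKM. In these bulk samples a change in the share of cells that express a gene and a change per cell cannot be told apart.

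In Parental cells, OHT raised 405 of the 2337 RING1B-free SUZ12 genes that passed the filter on low counts and lowered 26, with log2 fold changes of 1.5 or more in size and FDR under 0.05 (edgeR quasi-likelihood test). The 405 were 17.3%, and 15.1% of all 18154 genes tested were higher. The 26 were 1.11%, against 1.83% of all genes. The count of higher genes is thus near the background, unlike the RING1B-bound SUZ12 genes, of which 48.3% were higher. Median log2 fold change was 0.33 in the RING1B-free genes, 0.03 in all genes and 1.58 in the RING1B-bound genes. A gene silent before OHT passed the filter only if OHT raised it, so these shares describe the tested genes and not all 3384.

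**Figure D4:**
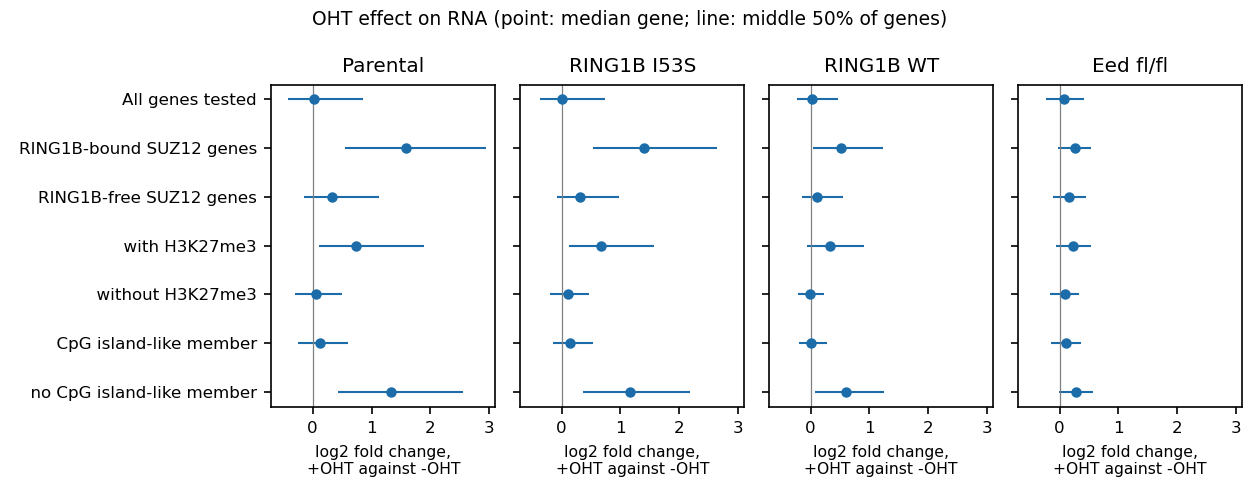
Points give the median log2 fold change of RNA with OHT in each line over the genes of each set, and lines span the middle 50% of genes. In Parental cells RING1B-free SUZ12 genes have a median of 0.33 and RING1B-bound ones 1.58, and RING1B-free genes without a CpG island-like member reach 1.32.

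The 405 genes were not spread evenly over the set. Of 1215 genes with H3K27me3 at the promoter 346 were higher (28.5%, median log2 fold change 0.74), and of 1122 without it 59 (5.26%, 0.06). Of 735 genes without a CpG island-like member 307 were higher (41.8%, 1.32), and of 1602 with one 98 (6.12%, 0.12). H2AK119ub1 divided them less: 194 of 957 genes with it were higher (20.3%) and 211 of 1380 without it (15.3%), and among genes with H3K27me3 the shares were 27.5% with and 29.7% without H2AK119ub1. With PCGF2 or CBX7 at the promoter 168 of 535 were higher (31.4%), and without either 237 of 1802 (13.2%). These counts are descriptions of sets, each with its own share of genes near 0 before OHT.

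The 5 increases with the lowest FDR in Parental cells were in genes of varied roles. Fabp5, a fatty acid carrier, stood at 20.7 and 23.0 CPM in Parental -OHT and at 143 and 156 CPM with OHT, a log2 fold change of 2.78 ± 0.24 (SE; edgeR FDR 9.88e-08). In I53S cells it went from 22.8 and 23.0 CPM to 85.5 and 95.8 CPM, in WT cells from 18.9 and 13.3 CPM to 34.9 and 58.8 CPM, and in Eed fl/fl cells from 16.5 and 14.7 CPM to 50.0 and 48.5 CPM. No library with OHT fell within the range of the untreated ones in any line. AA467197 went from 30.6 and 32.6 CPM to 279 and 277 CPM in Parental and from 32.1 and 32.1 CPM to 145 and 122 CPM in I53S cells, a log2 fold change of 3.14 ± 0.24 (FDR 2.5e-08) and 2.06 ± 0.23 (FDR 3.57e-06). Sct, which encodes the hormone secretin, went from 3.26 and 3.21 CPM to 28.2 and 38.5 CPM in Parental cells. Rem2, a GTPase that acts on calcium channels, went from 2.69 and 1.85 CPM to 27.8 and 25.1 CPM, and its member scored 62.6. Myl9, a myosin regulatory light chain, went from 2.85 and 0.865 CPM to 39.5 and 42.7 CPM in Parental and from 0.850 and 1.44 CPM to 32.3 and 53.8 CPM in I53S cells. The member at AA467197 (chr2:122637725-122638333) scored 12.4 and had no H3K27me3 peak, whereas that at Fabp5 (chr3:10012113-10013504) scored 21.6 and had one.

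Among the genes that fell were transcription factors and a receptor expressed in ESCs. Sall1, a zinc finger factor, stood at 106 and 94.6 CPM in Parental -OHT and at 18.7 and 17.2 CPM with OHT, a log2 fold change of −2.49 ± 0.22 (SE; edgeR FDR 1.52e-07). It went from 136 and 91.6 CPM to 38.4 and 28.9 CPM in I53S cells. In WT cells the values were 164 and 152 CPM and then 120 and 101 CPM, and in Eed fl/fl cells 123 and 109 CPM and then 130 and 131 CPM, and neither difference passed the test (edgeR FDR 0.215 and 0.912). The treated libraries of WT cells were both below the untreated ones, and those of Eed fl/fl cells both above. Mitf, a basic helix-loop-helix factor, fell from 96.0 and 117 CPM to 20.9 and 22.7 CPM in Parental cells (−2.28 ± 0.21, FDR 1.76e-07). Nr5a2, a nuclear receptor of pluripotent cells, fell from 51.3 and 57.5 CPM to 14.1 and 15.3 CPM. Fzd5, a Wnt receptor, fell from 62.7 and 62.4 CPM to 21.4 and 18.9 CPM, and Tubb3, a beta tubulin, from 90.3 and 63.0 CPM to 25.3 and 19.8 CPM. Members at these 5 genes scored 10.0 to 26.8.

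**Figure D5:**
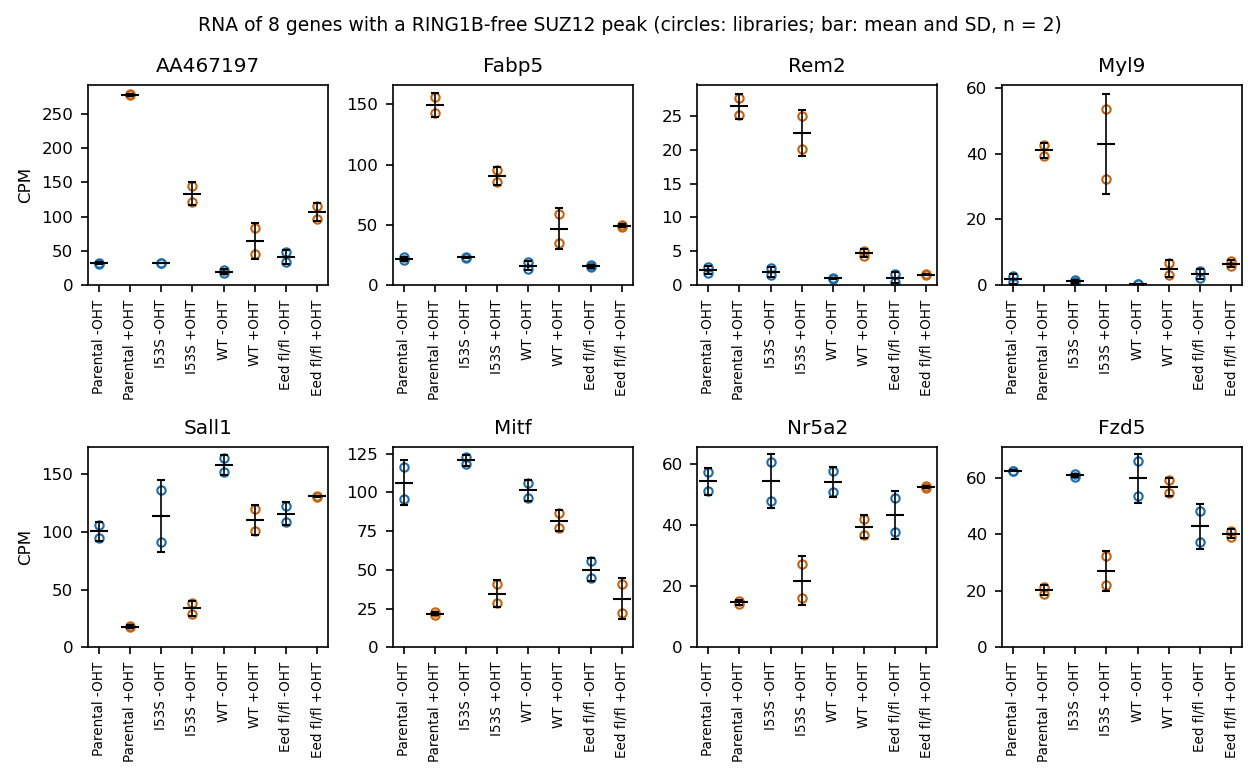
Circles give CPM of each RNA library and bars the mean and SD (n = 2) of 8 genes with a RING1B-free SUZ12 peak, by line and treatment (blue without OHT, orange with OHT). AA467197, Fabp5, Rem2 and Myl9 are higher and Sall1, Mitf, Nr5a2 and Fzd5 lower with OHT in Parental and I53S cells, with AA467197 at 279 and 277 CPM in Parental +OHT.

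In RING1B I53S cells nearly all the genes called higher in Parental cells also had a positive fold change. OHT raised 328 RING1B-free SUZ12 genes (14%) and lowered 4 (0.171%), against 12.8% and 1.04% of all genes tested, with a median log2 fold change of 0.32. Without I53S -OHT replicate 2 the count of higher genes was 204. The count of lower genes was 15 without I53S +OHT replicate 1, 2 without I53S -OHT replicate 1, 6 without the other library of either group, and 85 with no fold threshold. Of the 405 genes higher in Parental cells, 404 had a positive fold change in I53S cells (median 2.11) whose libraries are separate from those of Parental cells. The 405 were picked for their rise in Parental cells. No like count was made over all genes called higher there, for I53S, WT or Eed fl/fl cells. Such counts cannot be read as particular to RING1B-free genes. Tested directly, the OHT effect in I53S cells minus that in Parental cells passed the threshold at 0 of the 2337 genes in either direction by edgeR, with 64 at an unadjusted p under 0.05, and DESeq2 called 0. Over all 18154 genes 0 were called too, 0% in each direction, and 488 had an unadjusted p under 0.05. Named by their rank in I53S cells, Acpp, a prostatic acid phosphatase, went from 0.386 and 0.576 CPM to 11.7 and 12.6 CPM. Gpx3, a secreted glutathione peroxidase, went from 42.5 and 52.3 CPM to 157 and 211 CPM, and H2-T10, an MHC class I gene, from 1.08 and 0.767 CPM to 11.5 and 11.9 CPM. The 4 that fell were Sall1, Mitf, 2610037D02Rik and Zeb1, a repressor of epithelial genes, which went from 14.6 and 10.3 CPM to 5.01 and 3.1 CPM. Without I53S -OHT replicate 1 the changes of Sall1 (−1.45) and Zeb1 (−1.35) were under the fold threshold. H2-T10 has close relatives in its gene family, so its counts are uncertain.

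Of the same 405 genes, 373 had a positive fold change in RING1B WT cells (median 1.18). In RING1B WT cells, OHT raised 27 RING1B-free SUZ12 genes (1.16%) and lowered 1 (0.0428%), against 1.34% and 0.0386% of all genes. The count rested on single libraries: it was 4 without WT +OHT replicate 2, 5 without WT -OHT replicate 2 and 55 without WT -OHT replicate 1. Krt7, a keratin of simple epithelia, went from 10.2 and 6.36 CPM to 27.8 and 32.4 CPM, and the septin gene Sept4 from 0.535 and 0.768 CPM to 5.94 and 5.11 CPM. The gene that fell was Zbed3, from 18 and 8.67 CPM to 4.83 and 2.99 CPM, and its call was lost without WT -OHT replicate 1 (edgeR FDR 0.206), without WT +OHT replicate 1 (0.0577) and without WT +OHT replicate 2 (0.333).

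The OHT effect in WT cells differed from that in Parental cells at 22 RING1B-free SUZ12 genes, 5 with a more positive and 17 with a more negative effect in WT cells (edgeR interaction contrast). These were 0.214% and 0.727% of the tested members' genes, against 0.435% and 1.1% of all genes. The largest were at genes near 0: Mpo, which encodes myeloperoxidase, had 0 CPM in both Parental -OHT libraries and 1.2 and 1.36 CPM with OHT, at least 8.65-fold higher when set against a floor of 3 counts over the group. Chrdl1, a BMP antagonist, went from 0 in both libraries to 3.42 and 4.29 CPM, at least 26.0-fold higher. Cldn1, a claudin of tight junctions, went from 0 and 0.124 CPM to 3.67 and 5.26 CPM. In WT cells none of these 3 passed 0.75 CPM in any library. Fold changes fitted to genes at 0 depend on the prior count and are no bounds. The count of more negative effects was 4 without either Parental +OHT library, 8 without Parental -OHT replicate 2, 2 and 9 without WT +OHT replicates 1 and 2, and 5 without WT -OHT replicate 1. The count of more positive effects was 3 without Parental +OHT replicate 1 or WT -OHT replicate 1, and 2 without Parental +OHT replicate 2.

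In Eed fl/fl cells no RING1B-free SUZ12 gene passed the thresholds among 2601 tested, with 163 at an unadjusted p under 0.05 by edgeR, whereas DESeq2 called 6 higher and limma 0. A fit with a replicate block called 19 higher and 1 lower. The single pair check gave a correlation of 0.459, and the median level of RING1B-free SUZ12 genes was higher in replicate 2 than in replicate 1 without OHT (1.69 and 1.10 RPKM) and with OHT (1.88 and 1.52 RPKM). The study's methods list more than 1 Eed fl/fl clone, and the labels do not say which clone gave which library. Over all 25170 genes, 0.00795% were called higher and 0 lower. Without Eed fl/fl -OHT replicate 2 the count of higher genes was 44. Fabp5 had a log2 fold change of 1.66 ± 0.24 (edgeR FDR 0.0649). Eed, the gene that OHT deletes, had a log2 fold change of −1.95 ± 0.32 (edgeR FDR 0.0766) and was not called either. The 0 calls therefore do not show that these genes did not respond. Of the 405 genes higher in Parental cells, 312 of 378 tested had a positive fold change (median 0.43).

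Among genes of the 10 top-scoring members, Ramp1 went from 0.326 and 0.247 CPM to 2.73 and 3.02 CPM in Parental cells (log2 fold change 3.24 ± 0.75, SE; edgeR FDR 0.00257). In WT cells it had no count without OHT and 0.302 and 0.374 CPM with OHT. Cpxm2, a carboxypeptidase-like secreted protein, went from 0.570 and 0.618 CPM to 4.27 and 5.56 CPM in Parental cells, and Pear1, a platelet receptor, from 0.407 and 0.618 CPM to 6.75 and 4.87 CPM. Dclk3 did not pass the test, with 3.58 and 1.98 CPM and then 3.25 and 4.48 CPM (FDR 0.461), nor did Unc80 (FDR 0.739). Srrm3, which also has RING1B at a start site, had a log2 fold change of 2.30 ± 0.85 (edgeR FDR 0.0419), a call that was lost when any library but Parental -OHT replicate 1 was left out. Gm336, Gm15677, Chst9, Ntsr2 and Gm19026 had too few counts to be tested in the Parental, WT and I53S lines. In Eed fl/fl cells Chst9, Ntsr2 and Gm19026 were tested and did not pass (edgeR FDR 0.926, 0.861 and 0.979).

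Gene families were listed by symbol. Developmental transcription factors (Hox, Pax, Sox, Gata and like families) numbered 13 tested, of which 3 were higher in Parental cells with OHT (median log2 fold change 0.38), against 121 of 203 among all genes tested (2.91). Ion channels and neurotransmitter receptors numbered 25, with 7 higher and 1 lower (1.07), against 89 and 2 of 166 (1.79). Of 10 cadherins 3 were higher (0.43), against 21 of 49 (1.52). Of 14 Wnt, FGF, BMP, ephrin and semaphorin pathway genes 3 were higher and 2 lower (0.41), against 58 and 6 of 127 (1.54), and of 43 solute carriers 7 were higher (0.15), against 66 of 306 (0.36). No PRC2 subunit gene and neither Rnf2 nor Ring1 had a member at a start site. In Parental cells Phf19, a relative of MTF2, went from 2.36 and 1.98 CPM to 7.51 and 7.21 CPM, and Jarid2 from 986 and 821 CPM to 639 and 571 CPM.

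Markers of other cells moved in the same libraries. All 3 primitive endoderm markers (Gata4, Gata6 and Sox17) were called higher in Parental and in I53S cells, and their summed level was 1.47 to 2.35 CPM in Parental -OHT and 18.5 to 19.3 CPM in Parental +OHT, with Gata6 at 0 before OHT. In I53S cells the sum was 1.44 to 2.16 CPM and then 13.9 to 16.5 CPM, and in WT cells 1.21 to 2.89 CPM and then 2.92 to 5.73 CPM. The I53S call of Sox17 rested on single libraries. Its log2 fold change of 3.39 became 2.69 without I53S -OHT replicate 1 and 2.72 without I53S +OHT replicate 1, and the call was lost in each case. Of 3 fibroblast markers 2 were called higher in Parental cells, and both of these, Col1a1 and Col1a2, are themselves RING1B-free SUZ12 genes. The fibroblast sum was 11.9 to 14 CPM in Parental -OHT and 45.7 to 48.3 CPM with OHT. Of 7 ESC markers 2 were called lower, Sox2 and Zfp42, and the sum was 1573 to 1674 CPM in Parental +OHT. Klf4, the ESC marker with a member at its promoter, stood at 92.7 and 101.7 CPM in Parental -OHT and at 67.8 and 85.8 CPM with OHT. The part of these shifts in the changes of RING1B-free SUZ12 genes was not tested.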

How the data were processed

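ChIP-seq peaks and bulk RNA-seq (SMART-seq2) of mouse ESCs were analysed. Per the study's methods, ChIP reads were aligned to mm10 with Bowtie 1.2.2 without multi-mapping, duplicates were removed with samblaster, and peaks were called per library with MACS2 2.1.1 at p 1e-10. The peak lists deposited by the authors hold a score per peak, the −log10 p-value of MACS2. RNA reads were aligned with STAR 2.7 and counted by the authors on exons per gene name (GENCODE M21) with featureCounts, without strand, so overlapping genes cannot be separated. The deposited raw counts were used as they are. The authors' normalized counts and their tables of fold changes and adjusted p-values were not used. The Eed fl/fl table named normalized held the same values as the raw counts. One RYBP library, whose group the labels do not give, was not used.

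Members, gene lists and tests were chosen with earlier results of these data known. Regions overlapped when they shared 1 bp. Shares have 95% Wilson intervals, which cover counting over regions only. GC, CpG ratio and motifs were read from RefSeq GRCm38. RNA was tested with edgeR 4.0.16 (quasi-likelihood, TMM, R 4.3.3) in 1 fit of Parental, WT and I53S groups and 1 of Eed fl/fl, on 18154 of 55341 genes in the former, with Benjamini-Hochberg adjustment, calls at log2 fold changes of 1.5 or more in size and FDR under 0.05. The scripts were tested on simulated data. The biological coefficient of variation was 0.181 and 0.251, and the median depth 9991785 and 8382843 counted reads. RPKM was CPM divided by exon length. The SE given with an RNA log2 fold change was back-calculated, as its size divided by the square root of the quasi-likelihood F statistic. DESeq2 1.42.0 and limma 3.58.1 were alternatives. Other steps used Python 3.11.15, numpy 2.4.6, pandas 2.3.3, scipy 1.17.1, pysam 0.24.0 and matplotlib 3.10.9.

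Named genes were the 5 with the lowest FDR in each direction and line, genes of the 10 top-scoring members, the 3 largest called interactions per contrast, PRC2 and RING1 genes, and cell markers. Lists were matched by symbol start followed by up to 3 letters and a number, without antisense genes. Nothing beyond the term biological replicates says that RNA replicates were separate cultures, so p-values measure the spread between these samples. Replicate numbers were not used as pairs in the main fits. The 15 correlations of deviations between same-numbered libraries ran from −0.003 to 0.301, and the single Eed fl/fl pair gave 0.459. Deviations were thus partly shared by replicate number in some groups, which the main fits did not model. Counts from fits with a replicate block are given below.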

Additional observations from a re-analysis of the deposited data

Results flagged for a closer look

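The OHT effect in RING1B WT cells minus that in Parental cells, tested as an edgeR interaction contrast, was more negative at 17 RING1B-free SUZ12 genes and more positive at 5. These were 0.727% and 0.214% of those tested, below the 1.1% and 0.435% of all genes. Among the genes that fell in Parental cells, the difference was 1.97 ± 0.30 (log2, SE; edgeR FDR 0.00133) for Sall1, 1.97 ± 0.28 (FDR 0.000745) for Mitf, 1.56 ± 0.29 (FDR 0.00632) for Fzd5 and 1.60 ± 0.41 (FDR 0.0484) for Zeb1. Among genes near 0 before OHT it was −8.18 ± 1.97 (FDR 0.0359) for Mpo, −7.16 ± 1.71 (FDR 0.0344) for Chrdl1 and −6.44 ± 1.67 (FDR 0.0484) for Cldn1. These 3 calls were lost when most single libraries were left out.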

How the results depend on the processing

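Of the 4694 members, 1957 scored at least 20. Among these, SUZ12 was called on 45.4%, 75.6%, 21.5% and 16.4% in Parental +OHT, WT +OHT, I53S +OHT and MTF2 KO -OHT, H3K27me3 on 71.5% and H2AK119ub1 on 43.4% in Parental -OHT, and H3K27me3 and H2AK119ub1 on 38.0% and 25.8% in Parental +OHT. When a peak had to cover at least 50% of a member, these 8 shares were, in the same order, 24.8%, 39.8%, 10.5%, 10.7%, 50.9%, 25.2%, 19.3% and 18.2%, and when only peaks scoring at least 20 counted, 9.08%, 14.1%, 2.75%, 1.45%, 23.9%, 11.2%, 6.84% and 5.16%. SUZ12 in MTF2 KO Parental +OHT stood at 3.07% and 0.405% under these last 2 settings. Without chromosome 11, added after seeing the data, it stood at 1.27%, and MTF2 KO -OHT SUZ12 at 10.0%, H3K27me3 at 57.1% and 23.7% and H2AK119ub1 at 33.8% and 19.9% (Parental -OHT, then +OHT). The members minus the RING1B-bound peaks turned from −38.4 to 4.05 percentage points for SUZ12 in I53S +OHT at scores of 20 to 50, and from −33.3 to 6.47 points for H3K27me3 in Parental -OHT at 10 to 20, and in both cases the intervals of the sets overlapped.

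With at least 10 counts required in every library, which tests fewer genes, higher and lower calls were 157 and 14 in Parental cells, with 110 higher in I53S, 10 in WT and 3 in Eed fl/fl cells, and 3 more positive in WT than in Parental cells. Without a fold threshold they were 683 and 149 in Parental cells, 564 higher in I53S and 48 in WT cells, and 11 more positive in WT than in Parental cells. For genes of members scoring at least 20 they were 260 and 11 in Parental cells, 213 higher in I53S cells, and 1 more positive and 9 more negative in WT than in Parental cells. Without a filter on low counts, 65 were higher in WT cells and 40 more negative in WT than in Parental cells. DESeq2 called 6 higher in Eed fl/fl cells. With each library left out in turn, higher and lower calls ran from 308 to 418 and 18 to 27 in Parental cells, higher calls from 204 (without I53S -OHT replicate 2) to 346 in I53S (lower calls from 2 to 15), 4 to 55 in WT and 1 to 44 in Eed fl/fl cells, where 0 to 1 were lower. WT minus Parental gave 2 to 7 more positive and 2 to 23 more negative, and I53S minus Parental 0 to 0. The I53S minus WT difference ran from −51.2 to −23.7 points for MTF2 and from −32.4 to −27.0 points for JARID2. With the replicate block, higher and lower calls were 422 and 25 in Parental, 346 and 4 in I53S, 29 and 1 in WT and 19 and 1 in Eed fl/fl cells, and 7 and 24 for WT minus Parental. Among checks of named genes, 2756 kept direction and call, 66 lost the call, 11 gained it and 0 reversed. The WT calls of Fabp5, Rem2, Myl9 and H2-T10 were lost without WT -OHT replicate 2 or WT +OHT replicate 2, and that of Srrm3 in Parental cells under DESeq2. The causes were not tested.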
